A study of Mus musculus with 8 samples.

Results

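The genes of the tricarboxylic acid (TCA) cycle and of the entry of pyruvate into it were described in brown adipose tissue (BAT) of mice with and without a tumour. The set holds 36 genes, taken by their symbols from a table of 56953 Ensembl genes, and 33 of them had enough reads to be tested. BAT was taken from wild-type C57BL/6J mice, male or female, which were kept at 21 °C. They were 8 to 10 weeks old at injection, and BAT was collected after a period in which tumour size and body weight were followed. The 4 cancer-associated cachexia (CAC) mice had received 3000000 Lewis lung carcinoma (LLC) cells, a murine lung cancer line, in 100 µL of PBS under the skin of the right flank. The 4 control (CTR) mice had received PBS. The sex of each mouse was not used here, and only mice that grew a tumour entered the CAC group. The comparison asks which steps of mitochondrial carbon oxidation had another transcript level in the BAT of tumour-bearing mice.

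Pyruvate from glycolysis crosses the inner mitochondrial membrane through a carrier made of Mpc1 and Mpc2. The pyruvate dehydrogenase complex turns it into acetyl-CoA, and its activity is shut off by kinases (Pdk genes) and restored by phosphatases (Pdp genes). Citrate synthase joins acetyl-CoA to oxaloacetate, and the following enzymes of the cycle oxidise the product back to oxaloacetate, passing electrons to NADH and, at succinate dehydrogenase, directly into the respiratory chain. Side branches feed or drain the cycle through pyruvate carboxylase, malic enzymes, transaminases and glutamate dehydrogenase. Brown adipocytes hold many mitochondria, and the electrons from the cycle feed the respiration that UCP1 uncouples to make heat.

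Libraries held 2454493 to 4827956 counts in CTR and 1823167 to 3392538 in CAC, and the CAC replicates 1 and 2 were the shallowest. Levels are given as CPM, which are counts scaled to a common library size by the TMM method. For counting error alone, a count of 0 is compatible with up to 3 counts, or 0.661 to 1.62 CPM depending on the library. All 11 brown adipocyte markers were tested, and their summed level was 17100 to 19100 CPM in CTR and 16500 to 18900 CPM in CAC. That sum covers markers with values in both directions, 6 higher and 5 lower in CAC, and its largest parts were Cidea, Ucp1 and Fabp4. Only Ppargc1a, a coactivator of mitochondrial genes, was called (log2 fold change 0.73, adjusted p of 0.0201 in edgeR's test). Pparg had a log2 fold change of -0.71 (adjusted p of 0.261), and the CAC libraries all lay below the CTR libraries in Plin1 (-0.27), Cox7a1 (-0.22) and Cox8b (-0.22), none of them called. Fabp4 was also lower (-0.24), with overlapping libraries. The remaining markers were higher and not called, with Dio2 at 0.69 (adjusted p of 0.408 in edgeR's test), Cidea at 0.18, Adipoq at 0.04, Ucp1 at 0.03 and Elovl3 at 0.02. The paper reported lower Ucp1 mRNA in CAC by qPCR. Markers of some other cells moved with the group. All 10 skeletal muscle markers were higher in CAC, 1 of them past the threshold (1420 to 3370 CPM summed in CTR, 3110 to 5550 CPM in CAC). The 5 erythrocyte markers tested of 6 were higher, none past the threshold (6180 to 19300 CPM against 14600 to 44300 CPM, summed over all 6). The 3 neutrophil markers tested of 8 were all higher past the threshold (6.39 to 6.84 CPM against 165 to 435 CPM, summed over all 8). The largest of them in CAC were S100a8 and S100a9, with means of 175 and 73.5 CPM, against 10.7 CPM for Retnlg. The paper located the increase of S100A9 protein in brown adipocytes by staining of sections. It reported no significant difference in isolated CD45+ cells or in neutrophils counted on sections. In the BAT secretome it detected little S100A8 protein, with no appreciable group difference. Those are measures of protein and cells, while the values here are RNA of whole tissue. Of the 7 macrophage markers tested of 8, all 7 were higher and 2 passed the threshold (203 to 229 CPM against 283 to 393 CPM, summed over all 8). Of the white adipocyte list, 2 of 5 genes were tested, Hoxc10 and Tcf21 were at 0 in every library, and the summed ranges overlapped. The endothelial (1 higher, 4 lower), fibroblast (2 higher, 3 lower) and Schwann cell (2 higher, 1 lower) lists also overlapped in their sums, with 0 genes called. The part of these cells in the results below was not tested. In bulk tissue, fewer cells of a type and less RNA per cell cannot be told apart.

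Most members were lower in CAC, and 2 of them, Fh1 and Cs, fell past the threshold. Of the 33 members tested, 25 had a log2 fold change below 0 and 8 above it, with a median of -0.14. Over all 9876 genes tested, 50% had a log2 fold change below 0 and the median was -4.67e-05. In the quasi-likelihood test of edgeR, with p adjusted by Benjamini-Hochberg over all genes tested and a threshold of 0.05, 2 members were lower and 0 were higher in CAC. Over all genes, 0.932% were called in either direction and 0.192% were called lower. With an unadjusted p below 0.05, 10 members (30.3%) were lower, against 5.93% of all genes, and 2 members were higher, Pcx and Got2, against 7.01% of all genes. The 4 CAC libraries all lay below the 4 CTR libraries in 9 members (27.3%), which were Mpc1, Mpc2, Dlat, Cs, Idh3b, Ogdh, Suclg1, Sdhc and Fh1, against 3.4% of all genes. In 0 members did all CAC libraries lie above all CTR libraries, against 3.64% of all genes. Genes are not independent replicates, so these shares describe the set and were not tested.

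**Figure D1:**
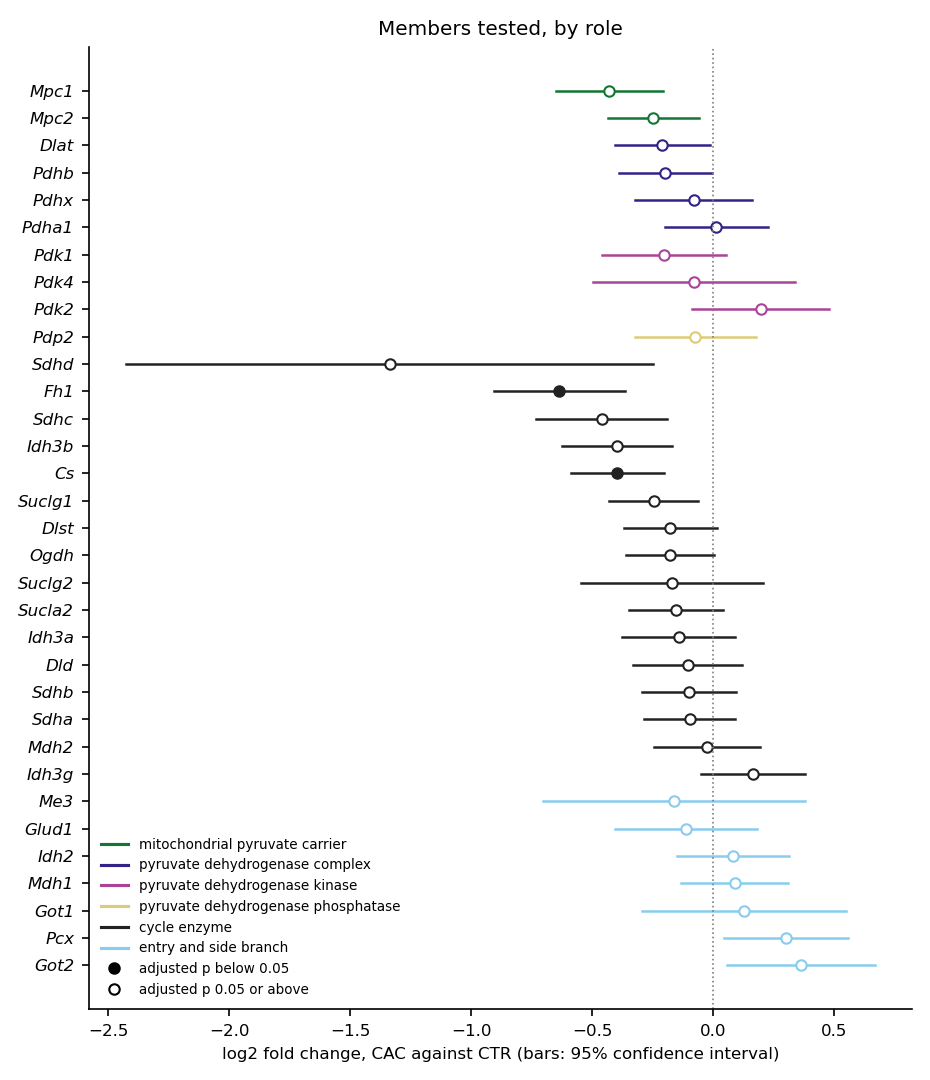
Log2 fold change of CAC against CTR for the 33 members tested, grouped by role (colours) and ordered by size within a role, with 95% confidence intervals from edgeR's fit of 4 against 4 libraries. Of the cycle enzymes, all but Idh3g lie left of 0, and Fh1 and Cs (filled points) have an adjusted p below 0.05.

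The roles differed in their counts. Both carrier genes were lower (median -0.34 on the log2 scale). Of the 16 cycle enzymes, 15 were lower (median -0.17), and these hold both called genes. Of the 4 subunits of the pyruvate dehydrogenase complex 3 were lower (median -0.14), and of the 3 kinases tested 2 were lower (median -0.08). Of the 7 entry and side branch genes tested, 2 were lower and 5 were higher, with a median of 0.09. The difference between roles was not tested.

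Each CAC library had most members below the CTR mean. Relative to the CTR mean, 22, 25, 29 and 22 of the 33 members were lower in CAC replicates 1 to 4, with medians of -0.17, -0.19, -0.19 and -0.14 on the log2 scale. In CTR replicates 1 to 4, which make up that mean, 15, 12, 13 and 22 members were below it. The members held 1.32% to 1.43% of all counts in CTR and 1.22% to 1.34% in CAC. Of the counts of genes encoded in the nucleus they held 1.99% to 2.08% in CTR and 1.73% to 1.90% in CAC, ranges that did not overlap. On the TMM scale the groups overlapped, with summed levels of 13600 to 14510 CPM in CTR and 12100 to 14120 CPM in CAC. The nuclear-encoded counts include those of the erythrocyte markers. Their part in this share, and in the shares of nuclear-encoded counts given below, was not tested.

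**Figure D2:**
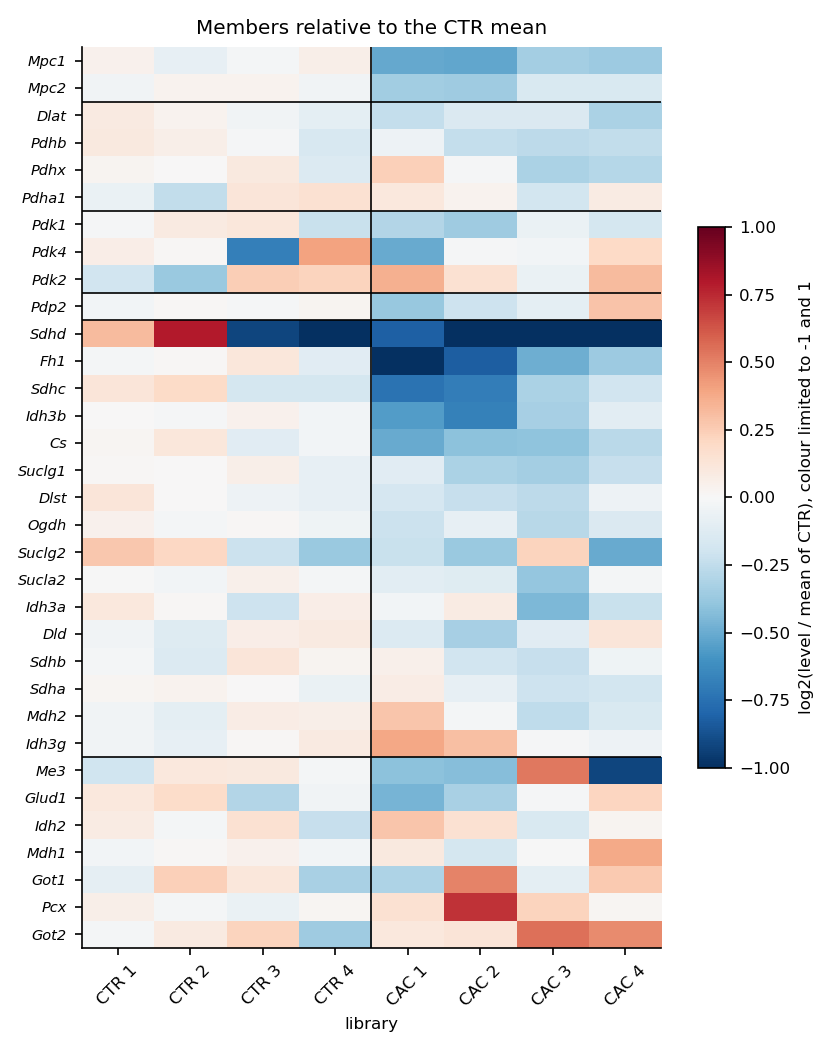
Level of each tested member in each library, as log2 of the CPM over the CTR mean, with colour limited to -1 and 1 and lines between roles. The CAC columns are mostly blue from Mpc1 to Mdh2, while the side branch genes at the bottom show both colours.

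The promoters of the 4 members with the smallest p, Fh1, Cs, Mpc1 and Idh3b, are shown because these genes stood lowest in CAC relative to their error. Each window runs from 250 bases before to 50 bases after the RefSeq start (GRCm38.p6), and is printed 5′ to 3′ on the gene's strand. Capitals mark CCAAT, the box bound by NF-Y, and CCGGAAG, a core bound by ETS factors, on either strand (ATTGG and CTTCCGG read on the other strand). The windows are chr1:175625586-175625885 (minus strand) for Fh1, chr10:128337477-128337776 (plus) for Cs, chr17:8283537-8283836 (plus) for Mpc1 and chr2:130284402-130284701 (minus) for Idh3b. RefSeq gives a further start for Mpc1, whose window (chr17:8284204-8284503, plus) holds neither motif and is not printed.
Fh1: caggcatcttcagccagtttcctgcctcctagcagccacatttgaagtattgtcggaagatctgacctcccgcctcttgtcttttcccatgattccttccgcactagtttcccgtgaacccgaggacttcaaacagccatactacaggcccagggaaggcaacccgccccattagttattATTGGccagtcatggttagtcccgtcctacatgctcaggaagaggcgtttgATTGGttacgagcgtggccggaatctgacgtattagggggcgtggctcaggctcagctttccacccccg
Cs: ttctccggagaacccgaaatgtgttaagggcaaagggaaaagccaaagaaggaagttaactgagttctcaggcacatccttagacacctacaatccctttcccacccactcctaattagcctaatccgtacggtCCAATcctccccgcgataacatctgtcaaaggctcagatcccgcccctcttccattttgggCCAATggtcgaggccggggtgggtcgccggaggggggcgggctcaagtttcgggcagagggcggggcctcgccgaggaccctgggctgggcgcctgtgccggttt
Mpc1: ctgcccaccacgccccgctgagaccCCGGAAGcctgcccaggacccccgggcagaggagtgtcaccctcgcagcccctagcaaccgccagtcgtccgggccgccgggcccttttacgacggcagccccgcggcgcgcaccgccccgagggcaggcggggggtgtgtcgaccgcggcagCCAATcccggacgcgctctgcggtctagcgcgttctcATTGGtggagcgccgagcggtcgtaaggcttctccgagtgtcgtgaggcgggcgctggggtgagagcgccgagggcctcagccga
Idh3b: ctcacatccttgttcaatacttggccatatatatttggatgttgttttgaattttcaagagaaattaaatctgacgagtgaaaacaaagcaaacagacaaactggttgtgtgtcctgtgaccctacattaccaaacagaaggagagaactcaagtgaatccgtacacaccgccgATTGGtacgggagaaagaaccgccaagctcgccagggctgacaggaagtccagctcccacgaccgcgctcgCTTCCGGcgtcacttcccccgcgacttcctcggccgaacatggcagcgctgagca
Fh1, Cs and Mpc1 each held 2 CCAAT matches and Idh3b held 1, while CCGGAAG was matched once in Mpc1 and once in Idh3b, with no overlap between the motifs.

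Promoter windows were found for 32 of the 36 members. CCAAT stood in a window of 20 of these (62.5%), against 41.1% of the 27025 genes with a window. CCGGAAG stood in 7 members (21.9%), which were Dlst, Glud1, Idh3b, Idh3g, Mpc1, Sdhb and Sdhd, against 9.93% of genes. AAGGTCA, a shorter site bound by oestrogen-related receptors, stood in Got1, Ogdh and Sdhd (9.38%, against 5.38% of genes). The longer TNAAGGTCA, which contains it, stood in Sdhd only among the members (3.12%, against 1.43% of genes). GCGCATGCG, the core bound by NRF1, stood in Ogdh only among the members (3.12%, against 1.95% of genes). All motifs were searched on both strands. The 41 member windows had a median GC content of 61.3% and a median of 21 CpG dinucleotides, against 52.7% and 7 over all windows. TATAAA stood in 0 of them, against 8.32% of all windows. These matches describe letters and carry no measurement of binding.

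The mitochondrial pyruvate carrier was lower in CAC in both of its subunits. Mpc1 (chromosome 17, 8282904 to 8297661, plus strand, GRCm38) was at 97.5, 89.5, 93.4 and 98.8 CPM in CTR replicates 1 to 4 and at 66.5, 65.9, 74.7 and 73.6 CPM in CAC replicates 1 to 4. Every CAC library was lower than every CTR library, and the CAC libraries lay close together. The means of 94.8 ± 4.22 and 70.2 ± 4.60 CPM (SD, n = 4) gave a log2 fold change of -0.43 (SE 0.106, 95% interval -0.65 to -0.21) with an adjusted p of 0.0559 in edgeR's test, which does not pass the threshold. Across the 13 alternatives that kept all 8 libraries its adjusted p ranged from 0.0228 to 0.0763, and 3 of them called it (DESeq2, upper quartile scaling and no filter on low counts). Part of its reads were counted as fractions in 6 libraries, and a gene on the opposite strand, 4930506C21Rik, overlaps it. Whether the fractions came from reads shared with another location or with an overlapping gene was not tested.

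Mpc2, its partner, was at 613, 641, 643 and 610 CPM in CTR and at 494, 489, 564 and 565 CPM in CAC. All CAC libraries were lower than all CTR libraries, and CAC replicates 1 and 2 were the lowest. The means were 627 ± 17.4 and 528 ± 42.4 CPM (SD, n = 4), and the log2 fold change of -0.25 (SE 0.0898) had an adjusted p of 0.229 in edgeR's test. The log2 ratio of Mpc1 to Mpc2 was -2.65, -2.84, -2.78 and -2.62 in CTR and -2.89, -2.89, -2.92 and -2.94 in CAC. The groups did not overlap in this ratio, and it was the only one of the 12 ratios between partner genes listed with the tests for which this held. The gap was narrow, with -2.84 in CTR replicate 2 and -2.89 in CAC replicate 2, and the separation was not tested. Their summed level was 721 ± 13.7 CPM in CTR and 598 ± 47.0 CPM in CAC, a difference of -17.1%, without overlap.

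In the pyruvate dehydrogenase complex, no subunit passed the threshold. Pdha1, the E1 alpha subunit that the kinases phosphorylate, was at 776, 684, 881 and 904 CPM in CTR and at 874, 831, 713 and 858 CPM in CAC. The groups overlapped fully, with a log2 fold change of 0.01 (SE 0.102, 95% interval -0.20 to 0.23, adjusted p of 0.976 in edgeR's test), so a change of more than 0.23 in either direction lay outside the interval. Pdha1 was counted with fractions of reads in all 8 libraries, and its sign was negative under upper quartile scaling and with no filter on low counts. Pdhb, the E1 beta subunit, was at 775, 754, 720 and 649 CPM in CTR and at 699, 615, 604 and 610 CPM in CAC. CTR replicate 4 lay below CAC replicate 1, and the log2 fold change was -0.20 (SE 0.0923, adjusted p of 0.366 in edgeR's test).

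Dlat, the E2 subunit that carries the acetyl group, was at 238, 228, 217 and 208 CPM in CTR and at 189, 202, 201 and 178 CPM in CAC. No CAC library reached the CTR range, and the means were 223 ± 12.9 and 193 ± 11.1 CPM (SD, n = 4). Dlat had a log2 fold change of -0.21 (SE 0.0945) with an adjusted p of 0.348 in edgeR's test. Pdhx, the protein that binds E3 to the core, averaged 209 ± 14.1 CPM in CTR and 198 ± 36.7 CPM in CAC (log2 fold change -0.08, adjusted p of 0.838). Summed over the 4 subunits, the complex differed by -6.41% in CAC with overlapping libraries. As a share of nuclear-encoded counts, which also leaves out the TMM scaling, it differed by -9.1% without overlap.

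The regulators of the complex gave no call. Pdk4, the kinase isoform induced by fasting and fatty acids, was at 21.9, 21.0, 12.9 and 27.8 CPM in CTR and at 14.6, 20.7, 20.5 and 24.0 CPM in CAC. CTR replicate 3 was the lowest and CTR replicate 4 the highest of the 8 libraries. The log2 fold change was -0.08 (SE 0.200, 95% interval -0.50 to 0.34, adjusted p of 0.918 in edgeR's test), and its sign turned in fits that left out 1 library, in which it ranged from -0.23 to 0.11. Pdk1, a kinase induced by hypoxia, averaged 49.7 ± 5.17 CPM in CTR and 42.7 ± 3.83 CPM in CAC (log2 fold change -0.20, SE 0.123, adjusted p of 0.517). Pdk2, a broadly expressed kinase, averaged 361 ± 75.0 and 414 ± 52.6 CPM (log2 fold change 0.20, SE 0.134, adjusted p of 0.577). The log2 ratio of Pdk1 to Pdk2 differed by -0.43 and that of Pdk4 to Pdk2 by -0.24 between the group means, with overlapping libraries in both. Pdk3 did not pass the filter, with 5, 9, 5 and 5 counts in CTR and 3, 0, 3 and 0 in CAC. Of the phosphatases, Pdp2 averaged 141 ± 2.58 CPM in CTR and 134 ± 27.2 CPM in CAC (log2 fold change -0.07, adjusted p of 0.857), with a wider spread in CAC. Pdp1 did not pass the filter, with 0, 2, 2 and 4 counts in CTR and 4, 4, 2 and 5 in CAC.

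**Figure D3:**
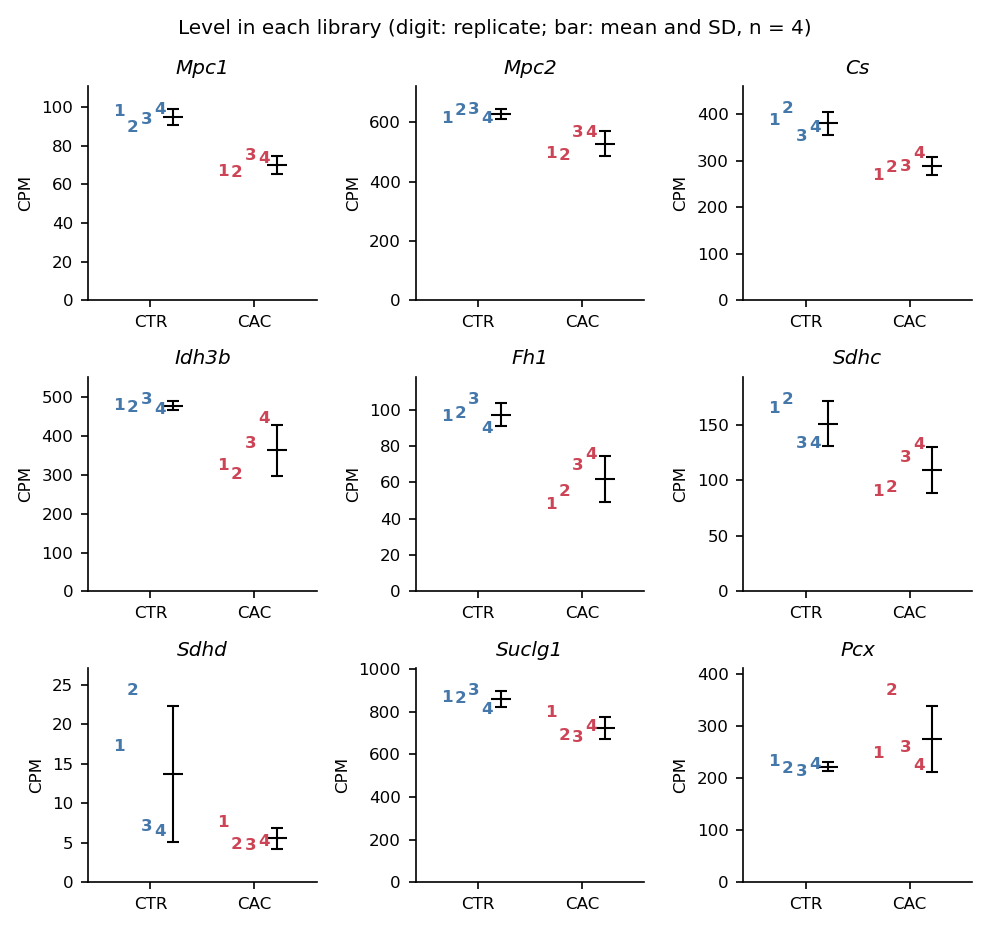
CPM of 9 members in each library, with digits for replicates, blue for CTR, red for CAC, and bars for the mean and SD of 4 libraries. All CAC points lie below all CTR points in Mpc1, Mpc2, Cs, Idh3b, Fh1, Sdhc and Suclg1, while Sdhd and Pcx overlap.

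Citrate synthase, encoded by Cs (chromosome 10, 128337734 to 128362479, plus strand), starts the cycle and fell in CAC. Its level was 385, 411, 352 and 372 CPM in CTR and 268, 285, 287 and 315 CPM in CAC. The highest CAC library, replicate 4, lay below the lowest CTR library, replicate 3. The means of 380 ± 24.7 and 289 ± 19.3 CPM (SD, n = 4) gave a log2 fold change of -0.40 (SE 0.0930, 95% interval -0.59 to -0.20) with an adjusted p of 0.0435 in edgeR's test, so that Cs fell by 24.0%. The call is close to the threshold. It held in 10 of 13 alternatives with all libraries (adjusted p from 0.0044 to 0.0694) and in 2 of the 8 fits that left out 1 library, those without CTR replicate 3 and without CAC replicate 4, while the adjusted p rose to as much as 0.147 in the others and the log2 fold change stayed between -0.43 and -0.36. Fractions of reads were counted in 5 libraries.

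The NAD-dependent isocitrate dehydrogenase is built of Idh3a, which carries the catalytic site, and of Idh3b and Idh3g. Idh3b (chromosome 2, 130279309 to 130284547, minus strand) was at 480, 474, 493 and 469 CPM in CTR and at 325, 300.5, 381 and 446 CPM in CAC. The CTR libraries lay close together, and the CAC libraries spread widely below them, with replicates 1 and 2 the lowest. The log2 fold change was -0.40 (SE 0.109) with an adjusted p of 0.0881 in edgeR's test. It was called with no filter on low counts (adjusted p of 0.00486) and without CAC replicate 4 (adjusted p of 0.0227), and over the 13 alternatives the adjusted p ranged from 0.00486 to 0.130. Nop56 overlaps Idh3b on the opposite strand, and the strand setting of the counting is not given in the sources used here, so reads of the 2 genes may not be told apart.

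Its partner subunits had other values. Idh3g averaged 747 ± 38.3 and 838 ± 127 CPM (SD, n = 4), and its log2 fold change of 0.17 (SE 0.103, adjusted p of 0.538) was the only positive one among the 16 cycle enzymes. Idh3a averaged 360 ± 34.2 and 327 ± 51.9 CPM (log2 fold change -0.14, adjusted p of 0.642 in edgeR's test). The log2 ratio of Idh3b to Idh3g was -0.60, -0.57, -0.61 and -0.76 in CTR and -1.58, -1.61, -0.96 and -0.69 in CAC. CAC replicates 1 to 3 lay below every CTR library, and CAC replicate 4 lay among them. Summed over the 3 subunits, the enzyme differed by -3.64% in CAC with overlapping libraries.

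The 2-oxoglutarate dehydrogenase complex makes succinyl-CoA. Ogdh, its E1 subunit, was at 517, 497, 508 and 489 CPM in CTR and at 434, 475, 415 and 455 CPM in CAC. Every CTR library was above every CAC library, and the means were 503 ± 12.3 and 445 ± 25.9 CPM (SD, n = 4). Ogdh had a log2 fold change of -0.18 (SE 0.0876, 95% interval -0.36 to 0.01) with an adjusted p of 0.403 in edgeR's test. Dlst, the E2 subunit, had a log2 fold change of -0.18 (adjusted p of 0.428), and Dld, the E3 subunit shared with the pyruvate dehydrogenase complex, one of -0.11 (adjusted p of 0.741). Summed over these 3 genes, the complex had mean sums of 1038 ± 30.4 and 925 ± 48.0 CPM in CTR and CAC, a difference of -10.9%, without overlap.

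Succinyl-CoA ligase makes a nucleotide triphosphate from succinyl-CoA and has a shared alpha subunit, Suclg1. Suclg1 was at 866, 863, 898 and 812 CPM in CTR and at 796, 690, 681 and 733 CPM in CAC. All CAC libraries were lower, with CAC replicate 1 just below CTR replicate 4. Suclg1 had a log2 fold change of -0.25 (SE 0.0888) with an adjusted p of 0.227 in edgeR's test. The ADP-forming beta subunit Sucla2 averaged 617 ± 14.4 and 555 ± 58.1 CPM (log2 fold change -0.15, adjusted p of 0.523), and the GDP-forming beta subunit Suclg2 had a log2 fold change of -0.17 (adjusted p of 0.753). The ratio of Sucla2 to Suclg2 differed by 0.03 on the log2 scale between the group means. The summed ligase had means of 1507 ± 47.9 and 1306 ± 92.4 CPM in CTR and CAC, a difference of -13.3%, without overlap.

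Succinate dehydrogenase is complex II of the respiratory chain. Sdha, the flavoprotein that oxidises succinate, averaged 980 ± 30.9 CPM in CTR and 918 ± 84.6 CPM in CAC (log2 fold change -0.10, adjusted p of 0.714), and Sdhb, the iron-sulphur subunit, averaged 2639 ± 192 and 2466 ± 226 CPM (log2 fold change -0.10, adjusted p of 0.718 in edgeR's test). Their log2 ratio was -1.43 in both groups. The membrane anchors had larger differences, with no call. Sdhc (chromosome 1, 171127165 to 171150603, minus strand) was at 165, 173, 134 and 134 CPM in CTR and at 90.3, 93.6, 121 and 132 CPM in CAC. The groups did not overlap, but CAC replicate 4 and CTR replicates 3 and 4 were nearly level. The log2 fold change was -0.46 (SE 0.130, adjusted p of 0.101 in edgeR's test), and it was called with no filter on low counts (adjusted p of 0.00417), 1 of 13 alternatives, whose adjusted p reached 0.152.

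Sdhd (chromosome 9, 50596357 to 50603812, minus strand), the other anchor, had few reads, with 48, 91, 17 and 29 counts in CTR and 14, 9, 16 and 15 in CAC. These equal 17.3, 24.2, 7.06 and 6.39 CPM in CTR and 7.57, 4.79, 4.69 and 5.23 CPM in CAC. CTR replicates 1 and 2 stood above the other 6 libraries, which overlapped. The log2 fold change of -1.34 (SE 0.484, 95% interval -2.43 to -0.25) had an adjusted p of 0.280 in edgeR's test. It was -0.87 without CTR replicate 2, and it was called without CTR replicate 4 (adjusted p of 0.0321) and with no filter on low counts. The log2 ratio of Sdhc to Sdhb, which was added after the values were seen, differed by -0.38 between the group means with overlapping libraries. Summed over the 4 subunits, complex II differed by -7.57% in CAC with overlap. As a share of nuclear-encoded counts without TMM scaling, complex II differed by -10.2%, and the groups did not overlap.

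Fumarate hydratase, encoded by Fh1 (chromosome 1, 175600374 to 175625635, minus strand), turns fumarate into malate and had the smallest p of the members. Its level was 96.1, 98.0, 105 and 90.0 CPM in CTR and 48.1, 54.8, 69.2 and 75.7 CPM in CAC. The groups did not overlap, and the shallow CAC replicates 1 and 2 were the lowest. The means of 97.4 ± 6.37 and 61.9 ± 12.7 CPM (SD, n = 4) gave a log2 fold change of -0.64 (SE 0.130, 95% interval -0.91 to -0.36) with an adjusted p of 0.0175 in edgeR's test, so that Fh1 fell by 35.6%. Fh1 was called in all 13 alternatives with all libraries (adjusted p up to 0.0410) and in 6 of 8 fits that left out 1 library. The call was lost without CTR replicate 1 (adjusted p of 0.0552) and without CAC replicate 2 (adjusted p of 0.0646), with log2 fold changes between -0.74 and -0.53 over the 8 fits. No fractions of reads were counted in Fh1, and Kmo overlaps it on the opposite strand. Mdh2, the malate dehydrogenase that closes the cycle, averaged 1479 ± 84.0 CPM in CTR and 1454 ± 242 CPM in CAC (log2 fold change -0.02, SE 0.105, adjusted p of 0.955).

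The shallow CAC libraries did not stand on 1 side in all members. CAC replicates 1 and 2 were both below replicates 3 and 4 in 11 of 33 members (33.3%, against 20.4% of all genes), among them Mpc1, Mpc2, Cs, Idh3b, Sdhc and Fh1. They were both above in 7 members (21.2%, against 19.7%), among them Pdhb, Idh3a, Idh3g, Sdha and Mdh2. The part of depth in these values was not tested.

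Summed over the 16 cycle enzymes, the level was 9903, 9558, 10160 and 9864 CPM in CTR and 9934, 8930, 8271 and 9114 CPM in CAC. CAC replicate 1 lay within the CTR range, and the other 3 lay below it. The means were 9871 ± 247 and 9062 ± 685 CPM, a difference of -8.2% that was not tested. As a share of nuclear-encoded counts without TMM scaling the same sum differed by -10.9%, and the groups did not overlap, which changes the denominator and the scaling together. With mitochondrially encoded genes left out and TMM kept, the log2 fold changes of Cs and Fh1 were -0.39 and -0.63, slightly nearer 0.

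**Figure D4:**
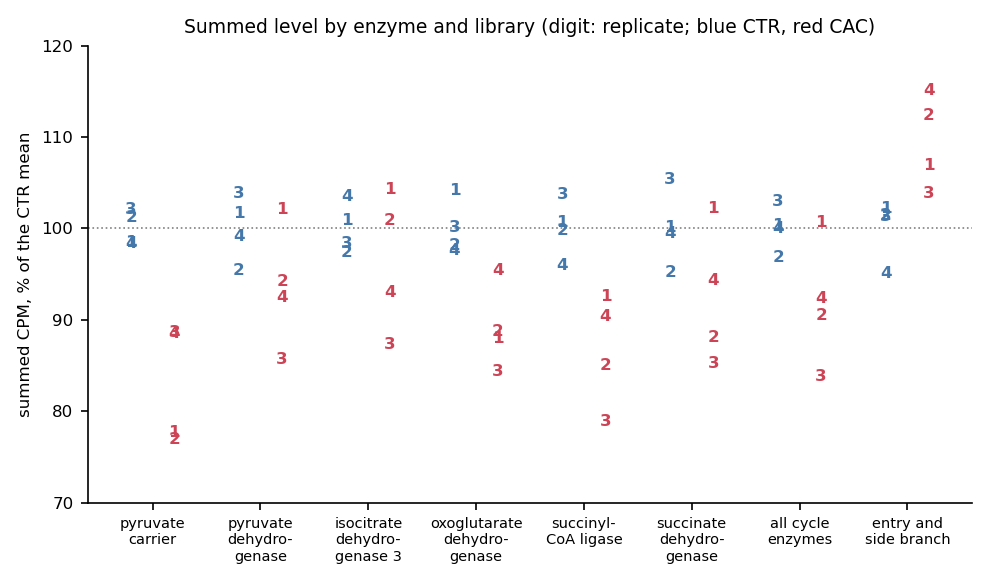
Summed CPM of each enzyme or role in each library as a percent of its CTR mean, on an axis from 70 to 120, with digits for replicates, blue for CTR and red for CAC. The carrier, the 2-oxoglutarate dehydrogenase complex and succinyl-CoA ligase have all CAC libraries below all CTR libraries, and the entry and side branch genes have them above.

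The entry and side branch genes went the other way in their sum. It was 946, 940, 939 and 881 CPM in CTR and 990, 1041, 962 and 1066 CPM in CAC, 9.52% higher without overlap. As a share of nuclear-encoded counts without TMM scaling it was 6.46% higher, and the groups overlapped. Pcx, pyruvate carboxylase, which makes oxaloacetate from pyruvate, was at 232, 220, 213 and 226 CPM in CTR and at 248, 368, 259 and 225 CPM in CAC. CAC replicate 2 was far above the rest and CAC replicate 4 lay within the CTR range. Pcx had a log2 fold change of 0.30 (SE 0.123, adjusted p of 0.286 in edgeR's test), and it was 0.13 without CAC replicate 2.

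Got2, the mitochondrial aspartate aminotransferase, was at 34.5, 37.3, 41.1 and 27.3 CPM in CTR and at 37.8, 38.3, 51.6 and 48.8 CPM in CAC. CAC replicates 3 and 4 were the highest, and replicates 1 and 2 lay within the CTR range. The log2 fold change was 0.36 (SE 0.146, adjusted p of 0.282 in edgeR's test), with fractions of reads in 6 libraries. The cytosolic partners Got1 and Mdh1 had log2 fold changes of 0.13 and 0.09, and the NADP-dependent Idh2 one of 0.08, with adjusted p of 0.856, 0.780 and 0.814. Glud1, glutamate dehydrogenase, had one of -0.11 (adjusted p of 0.799) and the malic enzyme Me3 one of -0.16 (SE 0.260, adjusted p of 0.857). The malic enzyme Me2 did not pass the filter, with 9, 2, 0 and 7 counts in CTR and 0, 1, 5 and 7 in CAC.

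The other genes of the pathway, a list of 31 entries in the table, had no call. Of the 26 tested, 14 were lower and 12 higher (median -0.02 on the log2 scale). In edgeR's test 0 passed the adjusted threshold, as in DESeq2 and limma, and with an unadjusted p below 0.05 4 of the 26 were lower, among them Aco1, Idh1 and Gpt, against 5.93% of all genes, and 2 were higher, among them Glul, a share near the 7.01% of all genes. Aco1, the cytosolic aconitase that also binds iron-responsive RNA elements, was at 18.4, 23.7, 11.2 and 17.9 CPM in CTR and 8.11, 9.57, 14.7 and 9.06 CPM in CAC. CTR replicate 3 lay below CAC replicate 3, and the means were 17.8 ± 5.12 and 10.4 ± 2.93 CPM (SD, n = 4). Its log2 fold change was -0.76 (SE 0.231, adjusted p of 0.126 in edgeR's test), and it was called with no filter on low counts and without CTR replicate 3.

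Glul, glutamine synthetase, was at 1477, 1641, 1360 and 1472 CPM in CTR and 1663, 1945, 1708 and 1826 CPM in CAC. Every CAC library was higher than every CTR library, with means of 1487 ± 115 and 1786 ± 127 CPM (log2 fold change 0.26, SE 0.0915, adjusted p of 0.200 in edgeR's test). Idh1, the cytosolic NADP-dependent isocitrate dehydrogenase, was at 118, 148, 108 and 121 CPM in CTR and 81.6, 119, 93.2 and 106 CPM in CAC. The groups overlapped through CAC replicate 2, and the means were 124 ± 17.4 and 99.9 ± 16.1 CPM (log2 fold change -0.31, SE 0.126, adjusted p of 0.282 in edgeR's test). Nnt, nicotinamide nucleotide transhydrogenase, which is disrupted in the C57BL/6J strain, did not pass the filter in either of its 2 entries.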

How the data were processed

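RNA of BAT from 4 CTR and 4 CAC mice, 1 library each, was sequenced with single-end reads. The authors checked reads with FastQC 0.11.9, aligned them to mm10 with HISAT2 2.2.1 and assigned them to genes by featureCounts with multi-mapping reads kept. The table they deposited holds expected counts with fractions of reads, which were rounded here. The normalized table, also deposited by the authors, gives a signal for 24792 genes that equals the count without decimals over 1 size factor per library (100% of the values of the 24644 genes matched to 1 entry of the count table, relative tolerance 1e-06), and it served an alternative only.

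Genes kept by filterByExpr were scaled by TMM and tested with the robust quasi-likelihood test of edgeR 4.0.16 (R 4.3.3) without covariates, with Benjamini-Hochberg adjustment over 9876 genes at 0.05. The procedure was tested on simulated data with log2 changes of 1 and 2 in either direction. It called 77 of 97 and 96 of 97 of these genes, and 14 of 9420 unchanged genes. Smaller changes, such as those of Fh1 and Cs, were not simulated. Libraries held 1823167 to 4827956 counts. The labels do not tie libraries to cultures or litters, so p-values measure the spread between these samples. Sums and log2 ratios of counts plus 0.5 were described without a test. Gene positions are those of GENCODE M21 (GRCm38), in which 36 members matched by ID without version, and promoters are from RefSeq.

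Values in every library are given for members with an unadjusted p below 0.05, for members called by an alternative with all libraries and for Pdk4, Pdha1, Pcx, Mpc1 and Ogdh, and, of the other pathway genes, for the 3 with the smallest p. Gpt and Nnt were named after their values were seen, and some genes of that list are not reported here by name. Members and lists were chosen with earlier results of these data known. Alternatives were DESeq2 1.42.0, its size factors, library size and upper quartile scaling, leaving out mitochondrially encoded genes, no filter, at least 10 counts in every library, decimals dropped, the replicate block, limma-trend (limma 3.58.1) on the signal plus 1, the fit without the robust option, other thresholds and each library left out. Leaving out the markers of other cells, which does not remove their RNA from the members' counts, keeping only genes of the signal table, and the ratios recomputed with decimals dropped or without each library were added after seeing the data. Tables and plots used Python 3.11.15, pandas 2.3.3 and matplotlib 3.10.9.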

Additional observations from a re-analysis of the deposited data

Results flagged for a closer look

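In 2 of 88 groups of 4 libraries checked, 1 library stood far from the other 3, where chance gives about 1 in 20, or 4.4 groups. Pdhb was at 699 CPM in CAC replicate 1, while the other CAC libraries were at 604 to 615 CPM. The summed level of the entry and side branch genes was 881 CPM in CTR replicate 4, while the other CTR libraries were at 939 to 946 CPM.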

How the results depend on the processing

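The 2 calls among the members became 1 with library size scaling, with the replicate block and without the robust option, where Fh1 was called in each, 3 with DESeq2 and with upper quartile scaling, where Mpc1 was added to Fh1 and Cs, and 6 with no low-count filter. They numbered 4 at an adjusted p under 0.1 and 0 at 0.01, and 0 to 3 when 1 library was left out (0 without CTR replicate 1 and without CAC replicate 2). The replicate numbers did not pair the samples (correlations of deviations 0.03, -0.02, 0.03 and 0.04, with the own number the best match for numbers 1 and 4), and the replicate block gave 140 calls over all genes against 92. No filter gave 351, at least 10 counts in every library 70, and leaving out 1 library 42 to 135. The other pathway genes gave 1 call with no filter and 0 to 1 when 1 library was left out. The summed cycle enzymes differed by -8.2%, by -11.1% to -5.53% when 1 library was left out, and by -10.9% as a share of nuclear-encoded counts without TMM scaling. The number of partner ratios without overlap was 1, and 1 to 3 when 1 library was left out (3 without CAC replicate 3, and 2 without CTR replicate 3, CTR replicate 4, CAC replicate 2 or CAC replicate 4). The median of the members stayed between -0.17 and -0.10. Pdha1 had log2 fold changes of -0.0104 with upper quartile scaling and -0.0158 with no filter. With 1 library left out, the sign turned in Got1 (-0.0019 to 0.23), Mdh1 (-0.0169 to 0.17), Mdh2 (-0.13 to 0.0429), Me3 (-0.63 to 0.0571), Pdha1 (-0.0647 to 0.0768), Pdk4 (-0.23 to 0.11) and Pdp2 (-0.21 to 0.0168). In a further 13 members it moved by over 1.5 times with the same sign: Sdhd and Pcx, as given above, and Pdhx (-0.19 to -0.0079), Glud1 (-0.24 to -0.0114), Suclg2 (-0.37 to -0.0582), Idh3a (-0.22 to -0.0529), Dld (-0.18 to -0.039), Pdk2 (0.088 to 0.29), Idh2 (0.0198 to 0.16), Idh3g (0.0916 to 0.24), Sucla2 (-0.19 to -0.0845), Sdha (-0.15 to -0.061) and Sdhb (-0.14 to -0.057), and of the 13 only Sdhd was called in any of these fits. Of the log2 fold changes of members over the settings, 657 kept direction and side of the threshold, 16 turned sign, 8 passed the threshold and 11 no longer did. The cause of these shifts was not tested. Counts were low in Sdhd, Pdk3, Pdp1 and Me2, and 3 counts equal up to 1.62 CPM.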
